A study of Sus scrofa with 10 samples.

Results

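The 10 genes described here encode the CatSper channel of the sperm tail, as far as the count table names them: all rows whose name starts with CATSPER, which are CATSPER1, CATSPER2, CATSPER3, CATSPER4, CATSPERB, CATSPERD, CATSPERE, CATSPERG and CATSPERZ, plus EFCAB9. They are 10 of 27376 rows. The study counted polyA RNA of pig (Sus scrofa) tissue at the 3' ends of transcripts with QuantSeq. It has 2 libraries of control testis, 4 libraries of FO grafts (testicular fibroblasts alone) and 4 libraries of GF grafts (germ cells together with testicular fibroblasts). Cells of both graft groups were placed in Matrigel under the dorsal skin of a mouse that the labels spell SKID, and the grafts were taken after 6 months. No genotype, strain or transgene is given for any group, the age of the pigs is not given, and the code 5D in the control titles is not explained, so age and tissue cannot be told apart in any comparison with control testis. The control samples also carry the graft growth text and a cell type of germ cell with fibroblast, and were placed by their titles. Nothing says that replicates came from separate animals or cell pools, and the spread behind each p-value may therefore be technical.

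CatSper is a calcium channel of the plasma membrane along the principal piece of the sperm flagellum. It opens as the inside of the sperm turns alkaline, and the calcium that enters drives the hyperactivated tail beat needed for fertilisation. Its pore is built from the 4 proteins CATSPER1 to CATSPER4, around which stand the auxiliary subunits CATSPERB, CATSPERG, CATSPERD and CATSPERE with large extracellular domains, and on the inside the small proteins CATSPERZ and EFCAB9, which bind each other. In the testis the channel is known as a product of late germ cells, with its proteins made in spermatids.

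Total counts ranged from 5844944 to 7013911 in control testis, 4033509 to 4887878 in FO and 2915534 to 4917325 in GF. Levels are CPM, counts scaled to a common library size with TMM factors, and a single count was worth 0.151 to 0.345 CPM, so 3 counts, the floor used for a gene at 0, stood for 0.452 to 1.04 CPM in a single library. GF 3 and GF 4 had the lowest totals and differed most from the other GF libraries, with a chi-square per degree of freedom of 50.6 to 58.9 against GF 1 and GF 2, where other pairs within a group gave 7.1 to 22.7. The labelled tissue was checked against marker lists. Sertoli cell markers summed to 4850 to 5413 CPM in control testis, to between 4824 and 8796 CPM in FO and to between 15072 and 45859 CPM in GF. Most of that sum was CLU, with means of 3830, 5725 and 28057 CPM. AMH, a defining Sertoli cell hormone, was below control testis in both graft groups but higher in GF than in FO. Its means were 482 CPM in control testis, 12.9 CPM in FO and 100.2 CPM in GF. In the same order SOX9 had 185, 257 and 482 CPM, WT1 103, 463 and 211 CPM, and MRO 9.70, 56.4 and 301 CPM. GATA4 had 220, 146 and 126 CPM and DHH 25.8, 13.7 and 19.5 CPM. Leydig cell markers summed to 14206 to 16801, 517 to 3816 and 1721 to 3351 CPM. INSL3 was the main part, at means of 9468, 1151 and 1530 CPM. STAR (2925, 52.6 and 49.8), CYP11A1 (1660, 243 and 230), CYP17A1 (889, 95.6 and 220) and LHCGR (298, 67.4 and 69.0 CPM) were also lower in both graft groups. Others differed, with HSD17B3 at 139, 47.5 and 256 CPM, HSD3B1 at 54.1, 62.9 and 27.0 CPM, and NR5A1 at 71.0, 23.7 and 68.7 CPM. The FO grafts, labelled as fibroblasts, thus carried transcripts of the Sertoli and Leydig lists. Markers of late spermatids summed to 15.5 to 17.0 CPM in control testis, 23.7 to 32.2 CPM in FO and 230 to 2612 CPM in GF. In control testis and FO most of this was AKAP3, at means of 12.1 and 21.4 CPM, while ODF1, GAPDHS and TSSK2 were at 0 in both groups and PRM1, the protamine of sperm chromatin, was at 0 in control testis and had 11 counts in FO. In bulk tissue, fewer cells of a type and less RNA per cell cannot be told apart. Skeletal muscle markers summed to 729 CPM (FO 1) and 191 CPM (GF 3), and to between 2.42 and 25.9 CPM elsewhere.

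Counts on the 10 genes were few. Control testis had 94 and 80 counts on all 10 together. Sums ran from 133 to 219 over FO and from 224 to 631 over GF libraries. Counts above 0 were found for 7 of the 10 genes in each control library, 6 to 8 in FO and 6 to 10 in GF. Because reads were taken at the 3' end, counts do not grow with transcript length, but they do depend on how well each 3' end is annotated, so levels are compared between libraries and not between genes. Values are CPM, given as mean ± SD with n = 2 for control testis and n = 4 for each graft group.

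**Figure D1:**
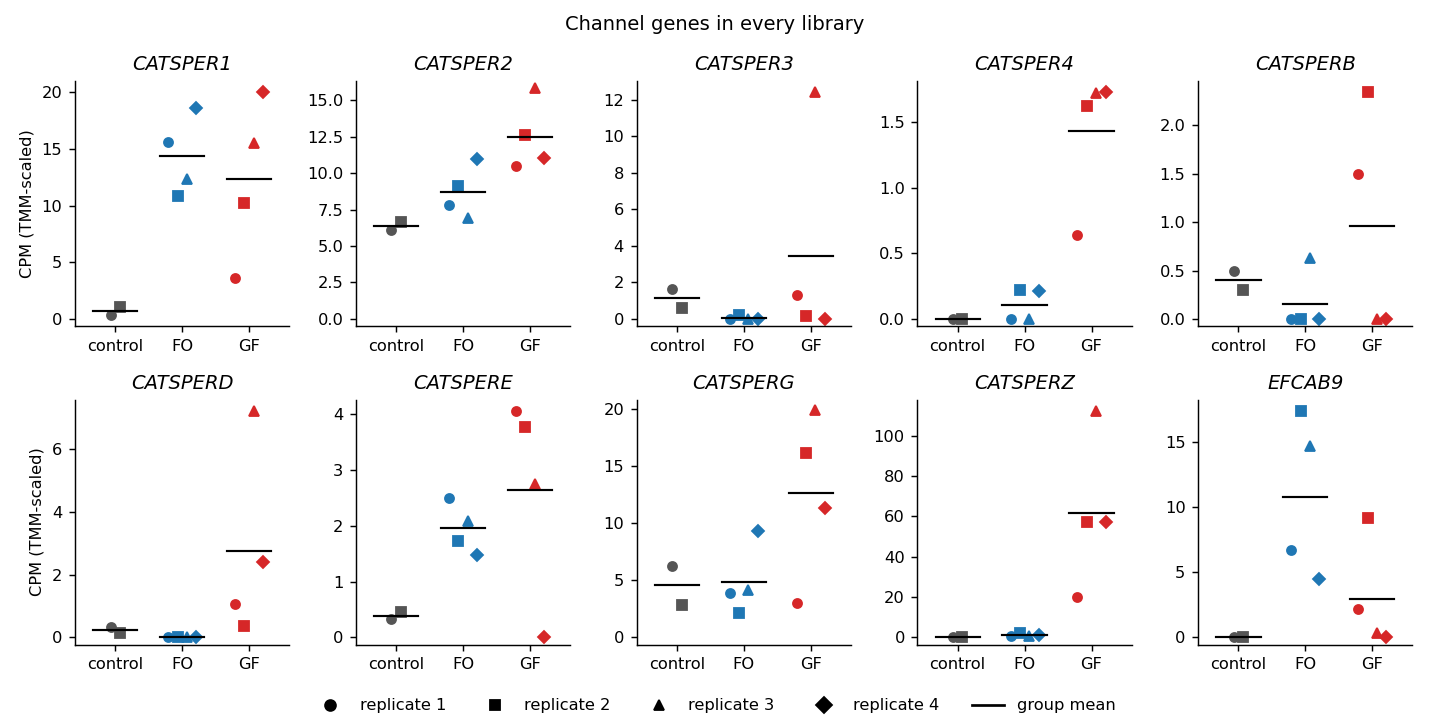
Level of each of the 10 channel genes in every library, in CPM on a linear axis that differs between panels; the marker shape gives the replicate number and the black line the group mean. CATSPERZ stands at 20.1 to 112 CPM in the GF libraries and at most 1.95 CPM elsewhere, while CATSPER1 is at similar levels in both graft groups and EFCAB9 has its highest values in FO.

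The comparison of GF with FO asks how grafts with added germ cells differ from grafts without them. CATSPERZ, the small cytoplasmic subunit that links the channel to EFCAB9, was the only channel gene that passed the test, and it rose in GF. Of the 10 genes, 6 had enough counts to be tested, 1 was called higher, 5 did not pass and 4 (CATSPER3, CATSPER4, CATSPERB and CATSPERD) were too low to be tested. Over all 13782 genes tested, edgeR's quasi-likelihood test with Benjamini-Hochberg adjustment called 30.5%, 17.6% as higher and 13% as lower in GF. DESeq2 called 1 channel gene higher and 0 lower. Over all 13782 genes it called 5147, of which 55.9% were higher. The median log2 fold change of the 6 tested genes was 0.50, beside -0.02 over all genes tested. This median covers only genes that the filter kept.

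CATSPERZ lies on chromosome 2, from 7813296 to 7817327 in RefSeq's Sscrofa11.1. It had 94, 317, 326 and 166 counts in GF 1 to GF 4, which are 20.1, 57.1, 112 and 57.3 CPM. The FO libraries had 2, 9, 4 and 6 counts, or 0.557 to 1.95 CPM, and both control libraries had 0. All GF libraries were above all others, at 20.1 against 1.95 CPM in the closest case. The means were 61.7 ± 38.0 CPM in GF and 1.15 ± 0.608 CPM in FO, with a log2 fold change of 5.69 ± 0.59 (adjusted p = 1.18e-04). Against the 0 counts of control testis the GF libraries were at least 239-fold higher, by a floor of 3 counts over the control group (adjusted p = 9.19e-05). Without control 1 or control 2 that bound was 125-fold or 114-fold. In 16 alternatives for GF versus FO the log2 fold change lay between 5.01 (without GF 3 and GF 4) and 6.06 (without FO 2), and the adjusted p between 1.48e-19 and 0.00282. Among its neighbours KCNK4, a potassium channel gene that overlaps it, had at most 0.193 CPM on average in any group, and ESRRA, 428 bases away, stood at a mean of 25.5 CPM in GF against 18.6 CPM in FO (adjusted p = 0.236). GPR137, a receptor gene 9127 bases away, rose in GF against FO by 1.83 ± 0.46 (adjusted p = 0.0114), from 19.1 to 34.6 CPM in FO to 40.2, 45.6, 177 and 130 CPM in GF 1 to GF 4. Its part in the CATSPERZ counts was not tested.

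Within GF, CATSPERZ varied 5.58-fold from its lowest (GF 1) to its highest library (GF 3). Set beside it are 8 germ cell markers, the 2 with the highest mean in GF from each germ cell list. Of these, ID4, ZBTB16 and CREM were also plain in FO, so their counts are not those of germ cells alone. In control testis, FO and GF, ID4 had means of 7.06, 133 and 101 CPM. In the same order ZBTB16 had 83.1, 94.0 and 302 CPM, and CREM 34.5, 37.5 and 67.8 CPM. ACR, an acrosomal protease, TNP1, which replaces histones, and PRM1 varied more, by 7.61-fold, 15.9-fold and 11.09-fold. PIWIL1, a piRNA-binding protein, and SYCP3, of the synaptonemal complex, varied less, by 3.67-fold and 2.43-fold. So did CREM, a transcription factor from the list of early spermatids (2.01-fold), and, from the spermatogonial list, ZBTB16 (2.21-fold) and ID4 (1.52-fold). ACR, TNP1, PRM1, PIWIL1 and SYCP3 were, like CATSPERZ, lowest in GF 1 and highest in GF 3. CREM and ZBTB16 were also lowest in GF 1 but highest in GF 2 and GF 4, and ID4 was lowest in GF 3. Per 100 counts of ACR there were 83.2, 80.1, 61.0 and 151 counts of CATSPERZ in GF 1 to GF 4, with exact 95% counting intervals of 62.6 to 110, 68.8 to 93.0, 53.0 to 70.2 and 118 to 194. Per 100 counts of PRM1 the values were 23.3, 13.2, 11.7 and 39.2. Other markers gave another order: per 100 counts of SYCP3 the values were 60.3, 88.5, 138.7 and 137.2, and per 100 counts of CREM 42.2, 59.7, 171 and 92.2. For TNP1 they were 47.2, 20.5, 16.5 and 50.2, and for PIWIL1 16.2, 23.0, 24.6 and 36.9. GF 4 was thus highest per ACR, PRM1, TNP1 and PIWIL1, and GF 3 per CREM. Per TNP1 the interval of GF 4 (41.4 to 60.6) overlapped that of GF 1 (36.6 to 60.7), and per SYCP3 GF 3 and GF 4 were close. All such intervals and floors cover counting error only, since no molecular identifiers are named and duplicate reads may be counted.

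EFCAB9, the calcium-binding EF-hand protein that pairs with CATSPERZ in the channel, did not follow it. The gene lies on chromosome 16, from 51987090 to 51996019. It had 24, 80, 70 and 21 counts in FO 1 to FO 4, which are 6.68, 17.4, 14.7 and 4.44 CPM, and 0 in both control libraries. In GF it had 10, 51, 1 and 0 counts, or 2.14, 9.19, 0.344 and 0 CPM. Counts in GF thus came almost wholly from GF 1 and GF 2, and the FO and GF ranges overlapped through GF 2. The means were 10.8 ± 6.20 CPM in FO and 2.92 ± 4.28 CPM in GF, a log2 difference of -1.79 ± 0.91 that did not pass (adjusted p = 0.154). Without GF 2 it passed, at -3.49 (adjusted p = 0.0168), without GF 3 and GF 4 it was -0.91 (adjusted p = 0.292), and over 16 alternatives the adjusted p ran from 0.0168 to 0.341.

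Of every 100 counts on either gene of the CATSPERZ and EFCAB9 pair, 77.8 to 94.6 fell on EFCAB9 in the FO libraries and 0 to 13.9 in the GF libraries, and the groups did not overlap. This ratio was chosen after the values were seen, so it is given as a description and was not tested.

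**Figure D2:**
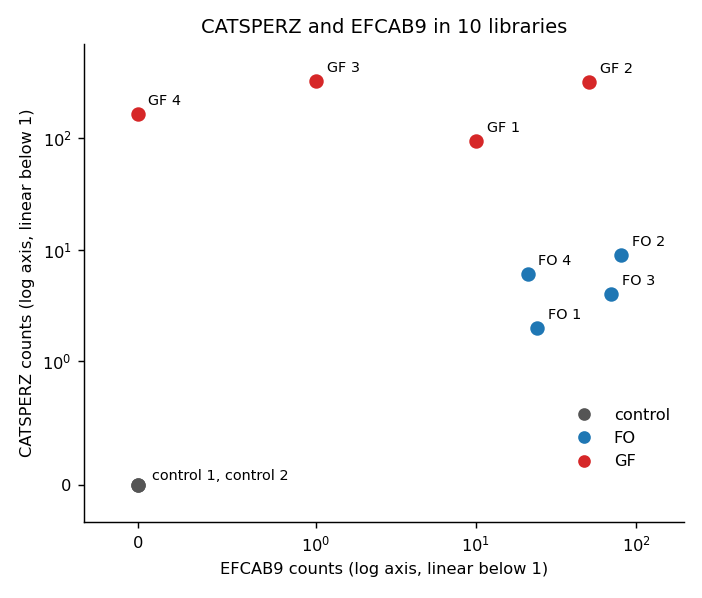
Counts of CATSPERZ (vertical) against counts of EFCAB9 (horizontal) in each library, both on log axes that are linear below 1; colour gives the group. The 4 GF libraries lie at 94 to 326 counts of CATSPERZ with 0 to 51 of EFCAB9, the 4 FO libraries at 2 to 9 with 21 to 80, and both control libraries at 0 for both genes.

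The pore subunits behaved differently from one another. CATSPER1, the pore subunit with a histidine-rich tail, lies on chromosome 2, from 6312906 to 6321690. It had 56, 50, 59 and 88 counts in FO 1 to FO 4 and 17, 57, 45 and 58 in GF 1 to GF 4, which are 10.9 to 18.6 CPM in FO and 3.64, 10.3, 15.5 and 20.02 CPM in GF. Grafts without added germ cells therefore carried it in every library, and the ranges of the graft groups overlapped. The log2 fold change of GF over FO was -0.22 ± 0.48 and did not pass (adjusted p = 0.753), without GF 1 it was 0.08, and without GF 3 and GF 4 it was -1.03 (adjusted p = 0.0723). CATSPER2 lies on chromosome 1, from 127814349 to 127831023. It was found in all 10 libraries, with 37 and 44 counts in control testis, 28 to 52 in FO and 32 to 70 in GF. Its means were 6.36 ± 0.388 CPM in control testis, 8.71 ± 1.78 CPM in FO and 12.5 ± 2.41 CPM in GF, and the difference of GF from FO did not pass (0.52 ± 0.37, adjusted p = 0.300). It shares a stretch with STRC, which averaged at most 0.755 CPM in any group, and it ends 253 bases from PDIA3, an abundant chaperone gene with group means of 82.9 to 400 CPM. Its part in the CATSPER2 counts was not tested.

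The other pore subunits were rare. CATSPER3, on chromosome 2 from 137139743 to 137175305, had 6, 1, 36 and 0 counts in GF 1 to GF 4, 1 count in all of FO and 10 and 4 in control testis. The GF 3 library alone thus held 36 of 43 counts. Pooled over the group, GF was 47.5-fold higher than FO (95% counting interval 8.08 to 1919), and without GF 3 it was 9.44-fold higher (interval 1.21 to 425). Without FO 2, which held the 1 FO count, it was at least 11.7-fold higher. CATSPER4, on chromosome 6 from 83607607 to 83627860, had 3, 9, 5 and 5 counts in GF, 0, 1, 0 and 1 in FO and 0 in control testis. Every GF library was above every FO library, at 0.642 to 1.73 CPM against at most 0.217 CPM, and the pooled ratio was 12.1 (interval 2.99 to 107). Among the 6 channel genes tested, CATSPERZ alone had non-overlapping groups, higher in GF. Of all genes tested, 17.8% were so placed and another 18.2% were lower without overlap. CATSPER4 and CATSPERD were also higher in GF without overlap, but they were not tested and those shares do not cover such genes.

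The auxiliary subunits were mostly low. CATSPERD, which the channel needs in order to assemble, lies on chromosome 2 from 73207458 to 73266158. It had 5, 2, 21 and 7 counts in GF, 0 in every FO library and 2 and 1 in control testis. By the floor of 3 counts over FO, GF was at least 12.9-fold higher, and without GF 3, which held 21 of 35 counts, at least 6.29-fold higher. The filter removed this gene from the fit on graft libraries. With all 10 libraries in the fit it was tested and called higher in GF (edgeR, adjusted p = 0.0110). It passed the filter there through GF libraries alone, the group where it is high, so that call is no separate support. CATSPERB, on chromosome 7 from 113201785 to 113293597, had 7 and 13 counts in GF 1 and GF 2 and 0 in GF 3 and GF 4. In FO it had 3 counts, all in FO 3, and in control testis 3 and 2. The pooled ratio of GF to FO was 7.36 (interval 2.18 to 38.7), and without GF 2 it was 3.94 (interval 0.900 to 23.6), which includes a ratio of 1. Without FO 3 it was at least 5.38-fold.

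CATSPERE and CATSPERG were tested and did not pass. CATSPERE, on chromosome 10 from 17268401 to 17355145, had 19, 21, 8 and 0 counts in GF and 9, 8, 10 and 7 in FO, a narrow range in FO against one that reached 0 in GF 4. Its log2 fold change was 0.48 ± 0.79 (adjusted p = 0.678). CATSPERG, on chromosome 6 from 47252307 to 47282833, had 14, 90, 58 and 33 counts in GF, or 2.99, 16.2, 19.98 and 11.4 CPM. In FO it had 14, 10, 20 and 44 counts, or 2.17 to 9.31 CPM, so that GF 2, GF 3 and GF 4 were above all FO libraries and GF 1 was among them. The log2 fold change was 1.36 ± 0.62 (adjusted p = 0.113), and without GF 1 it was 1.69 and passed (adjusted p = 0.0300).

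The channel genes did not share an order among the GF libraries. CATSPER1, CATSPER2, CATSPER4, CATSPERG and CATSPERZ were lowest in GF 1, whereas EFCAB9, CATSPERE and CATSPER3 were at 0 in GF 4. CATSPERB was at 0 in GF 3 and GF 4 and had all its GF counts in GF 1 and GF 2. GF 3 and GF 4 have the lowest totals, so that a gene at 0 is bounded there only at 1.03 and 1.04 CPM. The 9.19 CPM of EFCAB9 and the 2.34 CPM of CATSPERB in GF 2 lie above that limit.

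**Figure D3:**
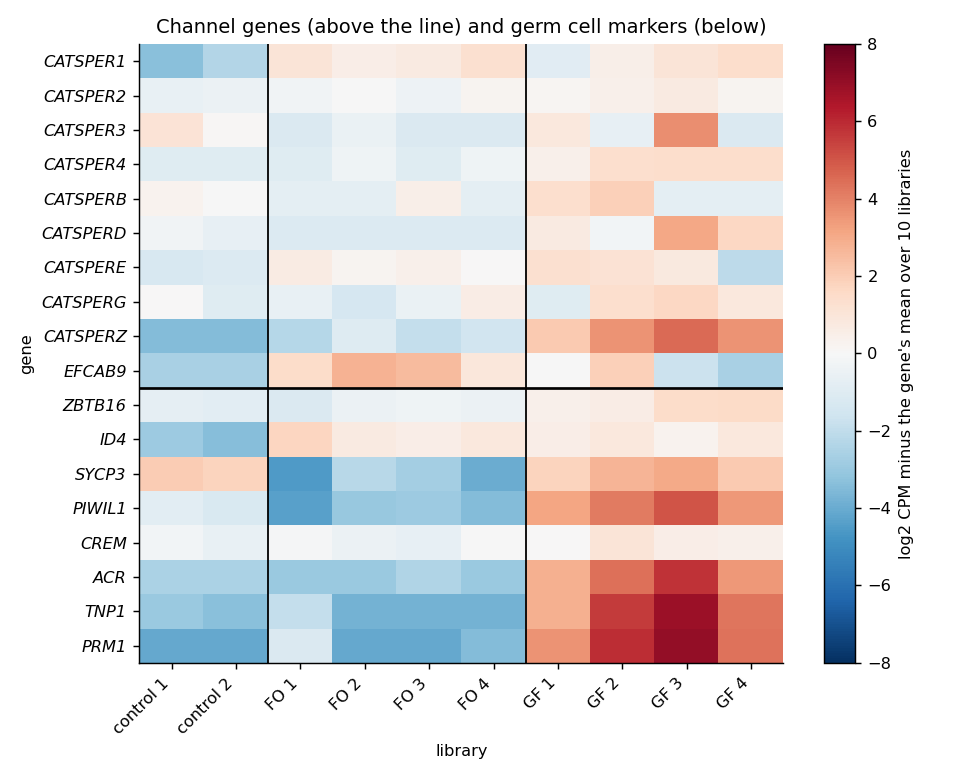
Colour shows log2 CPM (prior count 2) minus the gene's own mean over the 10 libraries, from blue (below the mean) to red (above), for the 10 channel genes above the black line and for 8 germ cell markers below it. CATSPERZ, PIWIL1, ACR, TNP1 and PRM1 are above their means in the GF libraries alone, whereas CATSPER1 and EFCAB9 are above their means in every FO library, and CATSPER1 also in GF 2, GF 3 and GF 4 and EFCAB9 in GF 2.

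The comparisons with control testis ask how far each graft differs from these 2 libraries. They share the control libraries and are not independent of each other. The genes called higher in both graft groups were CATSPER1, CATSPERZ and EFCAB9. In each comparison 7 of the 10 genes were tested, 3 were called higher and 4 did not pass, while CATSPER3, CATSPER4 and CATSPERB were too low. Of 15877 genes tested, 25.8% were called for GF versus control testis, 14% as higher and 11.8% as lower. For FO versus control testis 18.7% were called, 8.12% as higher and 10.6% as lower. With edgeR 0 channel genes were called lower. DESeq2 called 5 (GF) and 3 (FO) higher and 0 lower. Over all 15877 genes it called 5104 for GF versus control testis, of which 58.1% were higher. Its share for FO is not given here. All GF libraries were above both control libraries for 5 of the 10 genes, with the untested CATSPER4 among them, and below for 0. Of all genes tested, 21.9% and 25.3% were so placed. All FO libraries were above both for 5 genes and below for 2, CATSPERD and the untested CATSPER3, beside 26.8% and 31.9% of all genes tested.

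CATSPER1 had 2 and 7 counts in control testis, 0.329 and 1.06 CPM, below every graft library. It rose in FO (4.30 ± 0.80, adjusted p = 0.00238) and in GF (4.07 ± 0.79, adjusted p = 0.00266). Without control 1 neither call held, at 3.72 (adjusted p = 0.0506) and 3.47 (adjusted p = 0.0517), and without control 2 the values were 5.32 and 5.07. The neighbouring genes moved in FO as well. GAL3ST3, a sulfotransferase gene 6706 bases away, had means of 85.6 CPM (FO), 18.1 CPM (GF) and 0.809 CPM (control testis), and CST6, a cystatin gene 2047 bases away, of 51.0, 17.3 and 9.63 CPM. Both rose in FO against control testis (6.70, adjusted p = 8.56e-05, and 2.40, adjusted p = 0.00262) and fell in GF against FO (-2.22, adjusted p = 0.00224, and -1.56, adjusted p = 0.00605). GAL3ST3 was lowest among the grafts in GF 4, at 6.90 CPM, where CATSPER1 was highest, at 20.02 CPM. CST6 had 59.3, 39.1, 40.6 and 65.2 CPM in FO 1 to FO 4. CATSPER1 had the same order there, at 15.6, 10.9, 12.4 and 18.6 CPM. In GF 1 to GF 4 CST6 had 21.0, 10.1, 12.1 and 26.2 CPM. It was thus highest among GF libraries in GF 4, as CATSPER1 was, but next highest in GF 1, where CATSPER1 was lowest. Whether reads of a neighbour contributed to the CATSPER1 counts was not tested.

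EFCAB9 was at 0 in both control libraries, so its graft values give bounds. FO was at least 46.7-fold higher (adjusted p = 0.0134) and GF at least 16.4-fold higher (adjusted p = 0.0332). Without control 1 or control 2 the bounds were 24.4 and 22.3 for FO and 8.55 and 7.84 for GF, and none of the 4 calls held (adjusted p = 0.105, 0.119, 0.164 and 0.186). Without GF 2 the bound for GF was 4.45 and the call was lost as well (adjusted p = 0.0642), as it was with only the GF and control libraries in the fit (adjusted p = 0.124). The closest neighbour, UBTD2, a ubiquitin-domain gene 4429 bases away, had means of 29.8 CPM (FO), 15.6 CPM (GF) and 13.7 CPM (control testis) and did not pass in any comparison (adjusted p = 0.144 for GF versus FO, 0.183 for FO versus control testis and 0.819 for GF versus control testis). Skeletal muscle markers summed to 729, 7.60, 4.40 and 8.88 CPM in FO 1 to FO 4. EFCAB9 had 6.68, 17.4, 14.7 and 4.44 CPM in those libraries. Markers of multiciliated cells, another cell type with axonemes, summed to between 39.7 and 48.4 CPM (FO), 25.7 and 76.5 CPM (GF) and 18.5 and 28.3 CPM (control testis), with 4 to 6 of 9 genes above 0. CFAP126 alone made up most of it, at means of 38.1, 41.1 and 16.4 CPM. The defining factor FOXJ1 had 0, 1, 0 and 2 counts in FO, and MCIDAS was at 0 in both graft groups. Other members went in several directions. GMNC had 26 counts in FO, 2 in GF and 4 in control testis. In the same order DNAH5 had 69, 40 and 54 counts, DNAI1 2, 69 and 1, and TP73 5, 3 and 21. CCNO had 3, 12 and 1 counts and PIFO 0, 2 and 0. The part of such cells in the EFCAB9 counts was not tested.

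CATSPERZ in FO, with 21 counts in all, was at least 5.03-fold higher than control testis (adjusted p = 0.0265). That call was lost without control 1 (at least 2.62-fold, adjusted p = 0.135), control 2 (at least 2.40-fold, adjusted p = 0.160), FO 2 (at least 3.88-fold, adjusted p = 0.0581) or FO 4 (at least 4.90-fold, adjusted p = 0.0510). The spermatid genes ACR, TNP1 and PRM1 had 1, 4 and 11 counts over the FO libraries, and 10 of the 11 PRM1 counts and all 4 of TNP1 were in FO 1, where CATSPERZ had 2 of its 21.

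Of the remaining genes, CATSPER2, CATSPERD, CATSPERE and CATSPERG did not pass against control testis, and CATSPER3, CATSPER4 and CATSPERB were not tested. CATSPER2 in both control libraries was below every graft library, with log2 differences of 0.97 ± 0.44 for GF (adjusted p = 0.125) and 0.45 ± 0.44 for FO (adjusted p = 0.527). CATSPERE had 2 and 3 counts in control testis, below every FO library but not below GF 4. Its log2 differences were 2.71 ± 1.19 for GF (adjusted p = 0.111) and 2.24 ± 1.18 for FO (adjusted p = 0.214), and without GF 4 both passed (adjusted p = 0.0118 and 0.0475). CATSPERG had 38 and 19 counts in control testis and overlapped with both graft groups (adjusted p = 0.178 for GF and 0.944 for FO). CATSPERD, with 3 counts in control testis, was 9.25-fold higher in GF (95% counting interval 2.92 to 47.0, adjusted p = 0.134), and 4.52-fold without GF 3. CATSPER3 had 14 counts in control testis, above every FO library, and the pooled control level was 19.5-fold that of FO (interval 2.97 to 824), 10.7-fold without control 1 and at least 4.81-fold without FO 2. Against GF the pooled ratio was 2.44 in favour of GF, and without GF 3 it turned, with control testis 2.06-fold higher (interval 0.780 to 6.04). CATSPER4, at 0 in control testis, was at least 5.82-fold higher in GF, and at least 3.03-fold or 2.78-fold without control 1 or control 2. CATSPERB, with 5 control counts, was 3.17-fold higher in GF (interval 1.16 to 10.8), and 1.70-fold without GF 2 (interval 0.464 to 6.79).

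**Figure D4:**
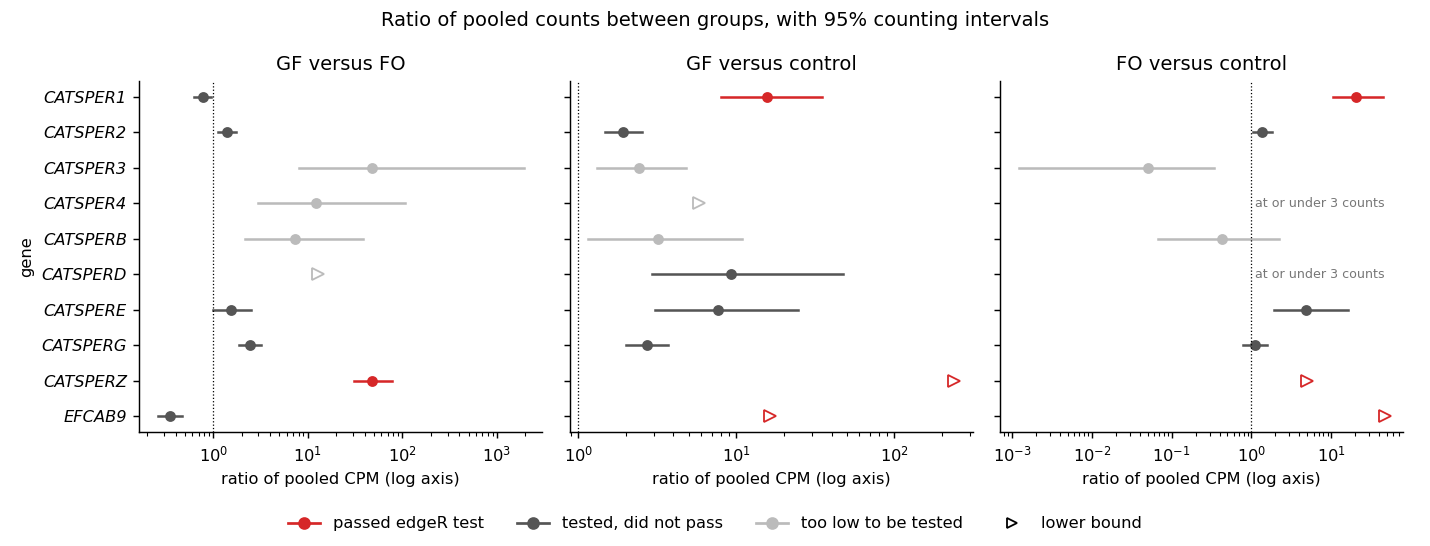
Ratio of counts pooled over each group (log axis that differs between panels) for the 10 channel genes in the 3 comparisons; bars are 95% counting intervals, open triangles are lower bounds against 3 counts, and red marks genes that passed the edgeR test. For GF versus FO the ratios run from EFCAB9, 2.85-fold lower in GF, to CATSPERZ and CATSPER3, each 47.5-fold higher, with only CATSPERZ tested and called.

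Genes that act with the channel were taken from a list of 20 sperm ion transport and calcium signalling genes, of which 18 are in the table. For GF versus FO, 10 were tested, 4 rose and 6 did not pass (median log2 fold change 1.419, beside -0.02 over all genes tested, of which 17.6% were called higher). C2CD6, which encodes a C2 domain protein of the channel complex, had 40, 127, 103 and 73 counts in GF and 5, 6, 4 and 2 in FO, with no overlap, and rose by 4.53 ± 0.58 (adjusted p = 3.40e-04). PPP3R2, the regulatory subunit of the sperm form of calcineurin, the calcium-dependent phosphatase, had 65, 254, 57 and 32 counts in GF and 0 in every FO library, at least 150-fold higher (adjusted p = 3.68e-04), and at least 86.7-fold without GF 2, which held 254 of its 408 counts. SLC26A8, an anion transporter of the sperm tail, had 81, 288, 222 and 48 counts in GF and at most 3 in a FO library, and rose by 7.03 ± 0.78 (adjusted p = 1.67e-04). Without FO 2 its value was 7.80. C2CD6, PPP3R2 and SLC26A8 were under the minimum count of 10 in every FO library. They thus passed the filter through GF libraries alone, and their calls and the median above carry that selection. CABYR, a calcium-binding protein of the fibrous sheath, had 32, 166, 102 and 0 counts in GF and 7 to 13 in FO. It rose by 3.17 ± 0.97 (adjusted p = 0.0284) although GF 4 was at 0. That call was lost without any single FO library (adjusted p = 0.0566 to 0.0783) and without GF 2 or GF 3 (adjusted p = 0.0666 and 0.0773), and without FO 1 and GF 3 together (adjusted p = 0.168).

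Against control testis, 15 genes of this list were tested. In GF 7 rose and 8 did not pass (median 3.02, beside 0.03 over all genes tested), and the 4 genes named above were among the 7. C2CD6 rose by 3.60 ± 0.70 (adjusted p = 0.00269, and 0.0556 without control 1), PPP3R2 by 5.75 ± 0.93 (adjusted p = 0.00165), SLC26A8 by 6.36 ± 0.97 (adjusted p = 5.84e-04) and CABYR by 4.97 ± 1.41 (adjusted p = 0.0204, and 0.167 and 0.134 without control 1 and control 2). Without control 1 and control 2 SLC26A8 stood at 5.67 and 7.69, and without GF 2 PPP3R2 stood at 5.12. In FO edgeR called 0 of 15. Over all genes tested edgeR called 14% higher in GF, and 8.12% higher and 10.6% lower in FO. DESeq2 called 1 gene of the list lower in FO, and its share over all genes is not given here.

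The shared profile of the channel genes was weak. Over 10 libraries, the 7 genes that passed the filter lay a root mean square difference of 0.63 (CATSPER2) to 2.16 (CATSPERZ) log2 units from their own mean profile, after each gene was centred on its mean. The closest pair among them was CATSPER2 and CATSPERG (0.76), and the farthest was CATSPERZ and EFCAB9 (3.75). Other genes came nearer to the mean profile than any channel gene did. Among the nearest by this measure were RNF19B (0.26), FAM49A (0.30), PRKCZ (0.31), ELOF1 (0.32), CDKL2 (0.33), ANKRD24 (0.36), SLC37A4, SESN2 and FAM216A (each 0.37). They were picked from all named genes that passed the filter, so some nearer gene was likely in any case. Their nearness therefore says nothing on how alike the channel genes are. The nearest genes to single channel genes were different in each case. For CATSPERZ they were SPINK2 (0.53) and C1H9orf131 (0.59), for EFCAB9 PGA5 (0.46) and SMPX (0.67), and for CATSPER1 EPS8L2 (0.30) and SH3RF2 (0.41). For CATSPER2 they were SAMD4B and PPP1R3E (each 0.16), for CATSPERD RSPH14 (0.26) and RYR2 (0.32), for CATSPERE NR2E1 (0.37) and HSPA2 (0.40), and for CATSPERG CFAP44 (0.38) and DNAH1 (0.42). These values describe 10 libraries in 3 groups that share depth and graft type, and low counts flatten the profiles of rare genes.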

How the data were processed

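The authors deposited whole-number counts, unnormalized, for each gene name and library. Per the submitters' processing notes, Sscrofa11.1 was the build; DESeq2 1.42.0 is listed there with no role. Aligner, counting program and strand setting: not given in the sources used here. Without a strand setting, overlapping or antisense genes cannot be told apart. Columns were matched to titles, taking F as FO. Positions are RefSeq's (Sscrofa11.1), which names 26836 of 27376 rows. No sequence was used here.

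After filterByExpr (minimum count 10) and TMM scaling, edgeR 4.0.16 (R 4.3.3, robust quasi-likelihood F test) was run, checked first on simulated data. For GF versus FO that check recovered 5 of 100 simulated 2-fold changes and 54 of 100 4-fold changes. Against control testis it recovered 1 and 44 for GF and 1 and 41 for FO. In the check for GF versus FO few of 14015 genes were changed and 60 were called, whereas 4205 of 13782 were called in the data. Adjustment is stricter when few genes change, so these recovery rates do not carry over to the data. How many true changes were missed is not known, and a gene that did not pass may still differ between groups. A gene was called at a Benjamini-Hochberg adjusted p below 0.05 over all genes tested. The 8 graft libraries were fitted for GF versus FO, and all 10 for the comparisons with control testis. Against 0 counts, folds are bounds from 3 counts over the group; with 1 to 3 counts, ratios have an exact 95% interval. Named by rule are all channel genes, partners called in GF versus FO, the 2 highest markers per germ cell list in GF, and the nearest profiles, of which 1 is not reported here. Neighbouring genes and other markers were added after their values were seen. Members and lists were chosen with earlier results of these data known. Alternatives were DESeq2, RLE or total-count scaling, unfiltered genes, a replicate block, a different set of libraries in the fit, and omission of single libraries or pairs.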

Additional observations from a re-analysis of the deposited data

Results flagged for a closer look

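A library was looked at again where its gap to the nearest other library made up most of its group's range (Dixon's test for 4 libraries). Of 19 sets of values, 10 channel genes in FO and GF less CATSPERD in FO with no spread, 4 met this. Chance gives about 1 in 20 for continuous values, a rate that does not hold for counts this low, so the number of such sets carries no weight. CATSPER3 reached 12.4 CPM in GF 3 against at most 1.28 CPM in the other GF libraries, a gap of 0.896 of the range. CATSPER4 in GF 1 stood low, at 0.642 CPM against 1.62 to 1.73 CPM (0.903 of the range). CATSPER3 was at 0.217 CPM in FO 2 (1 count) and CATSPERB at 0.628 CPM in FO 3 (3 counts), with 0 in the other 3 FO libraries each time, which makes the gap equal to the range.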

How the results depend on the processing

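The number of channel genes called in GF versus FO was 1, and was 3 with no filter on low counts (CATSPER3 and CATSPERD added, adjusted p = 0.0248 and 0.0101), 2 with all 10 libraries in the fit (CATSPERD), and 1 to 2 without single libraries. With the replicate number as a block it was 2, with EFCAB9 at -2.56 (adjusted p = 0.0409), the partner CABYR lost its call (2.39, adjusted p = 0.0862), and 4335 genes were called in all against 4205. The numbers were not taken as a pairing: correlations of same-numbered FO and GF libraries were 0.0549 to 0.218, and 2 of 4 FO libraries were closest to the GF library of their number. For GF versus control testis the number was 3, 5 with DESeq2 (CATSPER2 and CATSPERE added) and 1 to 4 without single libraries. For FO versus control testis it was 3, and 0 to 4 without single libraries; it was 0 without control 1. With only the groups compared in the fit it was 2 in each of these comparisons. Over all genes, 2312 were called in GF versus FO without FO 1 and GF 3. For GF versus control testis 2201 of a main 4091 were called with only those groups in the fit, and 1141 to 4729 without single libraries. For FO versus control testis 6600 of a main 2972 were called with only those groups, 6510 without GF 3 and GF 4, and 796 to 3987 without single libraries. Total counts as scaling made 69.1% of GF versus FO calls higher against 57.5%, and moved the median of all genes to 0.13 from -0.02. It changed no call of a channel gene. CATSPER1 in GF versus FO, -0.22, ran from -0.54 to 0.080 without single libraries and turned without GF 1 alone among these. CATSPERG in FO versus control testis, 0.11, turned to -0.51 under the replicate block and ran from -0.41 (without FO 4) to 0.76 without single libraries, at -0.36 without control 2; none of these passed. Of 335 values of single channel genes under alternatives, 310 kept direction and side of the threshold, 12 lost a call, 9 gained one and 4 changed sign. The cause of these changes was not tested.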
